A study of Mus musculus with 26 samples.

Results

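The genes described here encode the T cell antigen receptor's signalling chains and the first proteins of its signalling pathway. The 9 members, taken as a given list by gene symbol, were Cd3d, Cd3e, Cd3g, Cd247, Cd4, Cd28, Lck, Zap70 and Lat, 9 of 24848 genes in each table. All 9 passed the filter on low counts. Bulk RNA-seq was deposited for 26 libraries of sorted CD4+Foxp3+ regulatory T (Treg) cells and CD4+Foxp3- conventional T (Tconv) cells from the CNS or the dLN (the labels' abbreviation). The C57BL/6 mice had active experimental autoimmune encephalomyelitis (EAE), a model of inflammatory demyelination, and their cells were taken on day 14. All mice, controls included, carried Foxp3Cre-ERT2, a tamoxifen-inducible Cre recombinase expressed in Foxp3+ cells, and all received tamoxifen from day 7 to day 14. Control mice (Ctrl) had no other listed allele, and the inducible knockouts (icKO) also carried Tnfrsf1bFlox/Flox, which allows Cre to delete the TNFR2 gene in Treg cells. Tconv cells of icKO mice, being Foxp3-, carried the floxed allele without expressing this Cre. There were 3 libraries in each group of cell type, tissue and genotype, and 4 in both groups of CNS Tconv cells. The labels number mouse replicates but do not say whether 1 mouse or a pool gave each library, or whether Treg and Tconv libraries came from the same mice.

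In a T cell the antigen-binding receptor has almost no cytoplasmic part, and signals leave through its partner chains: CD3 delta, epsilon and gamma and the zeta chain encoded by Cd247. On binding of antigen the kinase Lck, held by the coreceptor CD4, phosphorylates these chains, the kinase Zap70 docks on them, and Zap70 then phosphorylates Lat, the membrane scaffold on which downstream enzymes assemble. CD28 gives the costimulatory signal, and Treg cells need receptor signalling for their suppressive function.

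In GRCm38 coordinates, Cd3g lay at chr9:44969572-44980431 on the minus strand, Cd3d at chr9:44981786-44987339 on the plus strand and Cd3e at chr9:44998740-45009627 on the minus strand. Cd3g and Cd3d are read away from each other from starts 1355 bases apart. Cd247 spanned chr1:165788681-165877277 on the plus strand and overlapped Pou2f1 on the other strand, and since the libraries carry no strand information, reads of this pair in shared exons cannot be told apart. Cd28 (chr1:60716800-60773359, plus strand), Zap70 (chr1:36761798-36782818, plus strand), Lck (chr4:129548344-129573641, minus strand), Cd4 (chr6:124864692-124888221, minus strand) and Lat (chr7:126363824-126369570, minus strand) completed the list.

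RefSeq promoter windows (build GRCm38.p6) were matched for 7 of the 9 genes, in 10 windows. The 250 bases before the annotated start are shown for Lck and Lat, whose levels ran closest together over the libraries, and for Cd3e and Cd247, receptor chains called lower in Treg cells in 3 of the 4 tissue and genotype pairs. Capitals mark the ETS family motif CAGGAAG or its reverse CTTCCTG.
Lck, upstream start (chr4:129573642-129573891, minus strand): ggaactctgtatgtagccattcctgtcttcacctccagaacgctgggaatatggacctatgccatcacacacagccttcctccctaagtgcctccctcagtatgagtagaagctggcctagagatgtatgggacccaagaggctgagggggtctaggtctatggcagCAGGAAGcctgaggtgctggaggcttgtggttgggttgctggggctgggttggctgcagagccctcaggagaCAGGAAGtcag
Lck, inner start (chr4:129558373-129558622, minus strand): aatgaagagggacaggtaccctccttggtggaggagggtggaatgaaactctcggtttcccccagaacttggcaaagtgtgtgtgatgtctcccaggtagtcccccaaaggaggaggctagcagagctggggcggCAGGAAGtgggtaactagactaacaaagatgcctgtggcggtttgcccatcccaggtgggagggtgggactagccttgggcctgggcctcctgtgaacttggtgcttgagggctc
Lat (chr7:126369569-126369818, minus strand): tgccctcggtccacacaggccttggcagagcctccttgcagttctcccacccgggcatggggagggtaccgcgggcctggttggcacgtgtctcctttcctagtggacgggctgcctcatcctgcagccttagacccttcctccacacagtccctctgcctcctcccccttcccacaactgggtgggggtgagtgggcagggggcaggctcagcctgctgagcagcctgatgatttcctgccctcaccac
Cd3e (chr9:45009612-45009861, minus strand): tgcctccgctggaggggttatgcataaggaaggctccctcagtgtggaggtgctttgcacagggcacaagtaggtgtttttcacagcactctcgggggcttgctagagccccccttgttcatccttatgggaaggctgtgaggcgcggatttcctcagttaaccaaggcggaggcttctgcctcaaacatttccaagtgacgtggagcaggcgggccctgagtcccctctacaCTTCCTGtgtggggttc
Cd247 (chr1:165788431-165788680, plus strand): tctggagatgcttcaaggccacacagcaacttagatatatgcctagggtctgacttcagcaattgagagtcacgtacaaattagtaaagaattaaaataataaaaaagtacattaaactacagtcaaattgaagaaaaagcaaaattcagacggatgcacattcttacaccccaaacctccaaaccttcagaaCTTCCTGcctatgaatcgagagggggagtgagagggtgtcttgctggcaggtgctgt
The ETS letters, searched on both strands, occurred in 5 of the 10 windows and in 4 of the 7 genes (Lck, Cd3e, Cd247 and Zap70), and in 10.8% of all 32851 windows. The Runx letters TGTGGT were in 2 of the 10 windows against 14.0% of all, and the E-box letters CAGGTG in 6 against 17.2%. Lck and Lat differed here: both Lck windows held the ETS letters and the Lat window held none of the 3 motifs. Matches of different motifs may share bases, and a match is a description of letters only.

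Expected counts summed to between 12422708 and 18527627 in 25 libraries, with 11089 to 14259 genes above 0. Replicate 3 of icKO dLN Tconv cells stood apart, with 7775649 counts over 6005 genes and a best rank correlation with any other library of 0.70, against at least 0.94 for the rest. Its Cd28 level was 1210 CPM (a counts-per-million value) against 440 to 475 in the other dLN Tconv libraries, and its Cd4 level 570 against 980 to 1145. For its depth and its genes above 0 this library was left out of the main fit, which used 25 libraries. Counts of called genes with all 26 are printed beside that fit. File names of 5 CNS Tconv libraries (Ctrl replicates 3 and 4, icKO replicates 2, 3 and 4) give the other genotype than their labels. Groups follow the labels, so the genotype of 5 of the 8 CNS Tconv libraries is in doubt wherever these groups are used. Foxp3 was higher in Treg than in Tconv cells by 5.35 to 7.38 on the log2 scale in the 4 pairs of groups. Tnfrsf1b was at 454, 664 and 711 CPM in Ctrl and 352, 357 and 510 in icKO CNS Treg cells, and at 736, 793 and 857 in Ctrl and 618, 620 and 620 in icKO dLN Treg cells. The icKO libraries were thus lower by 0.59 and 0.36 on the log2 scale, with edgeR adjusted p of 0.56 and 1, and reads over the whole gene check the deletion only in part. In CNS Tconv cells, which do not express this Cre, Tnfrsf1b was higher in icKO libraries, at 269 to 390 CPM against 176 to 229 in Ctrl (0.72 ± 0.14, edgeR adjusted p = 0.0091), and it was not called there with 26 libraries. CNS Treg libraries also held transcripts of other cells: 10 myeloid genes summed to 3731 to 5814 CPM, against 6.26 to 876 in all other groups. None of the 10 was at 0 throughout any group, CNS Treg or other. The 6 microglial genes summed to 1581 to 2228 CPM in CNS Treg libraries against 88.1 to 429 elsewhere. The 6 genes of CD8 T and NK cells summed to 198 to 380 CPM in icKO against 89.9 to 107 in Ctrl CNS Treg cells. Neutrophil transcripts (5 genes) summed to 67.2 to 870 CPM in CNS Treg libraries and at most 9.0 elsewhere, and of 6 B cell genes, which summed to at most 119 CPM, Pax5 was at 0 there. The oligodendrocyte list was not raised there, with 154 to 219 CPM in CNS Treg libraries against 190 to 337 in the other groups. Lists of neurons (0.24 to 3.01 CPM) and of endothelium and fibroblasts (50.5 to 121.9) also reached no higher than elsewhere (0.72 to 12.4 and 76.5 to 175.8). Astrocyte genes summed to 7.59 to 20.0 CPM in CNS Treg libraries against at most 8.21 elsewhere. Genes of mast cells and platelets summed to 2.55 to 9.14 CPM against at most 23.1. The part of these transcripts in the differences below was not tested.

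Per unit of transcript length, Cd3g and Cd3e were the most abundant of the 9. Over the 25 libraries the authors' TPM (a transcripts-per-million value, scaled for length) averaged 1792 ± 213 for Cd3g (SD, n = 25), 1287 ± 143 for Cd3e, 1138 ± 233 for Lck and 909 ± 122 for Cd3d. Lat averaged 537 ± 158 TPM, Cd4 511 ± 140 and Cd247 385 ± 113. Zap70 with 204 ± 31.1 TPM and Cd28 with 154 ± 29.5 were lowest. The SDs of Cd3e, Lck and Cd3d, of Lat, Cd4 and Cd247, and of Zap70 and Cd28 reached across neighbours in this order. The gene lengths that RSEM assigned varied little between libraries, from 1676 to 1690 bases for Cd247, from 2117 to 2124 for Lck and from 2023 to 2135 for Zap70, the members with more than 1 listed transcript. Summed TPM of the 9 genes was 5366 to 6976 in the Treg and 7042 to 8495 in the Tconv libraries, without overlap. In bulk RNA, fewer T cells in a sample and less RNA of these genes per cell cannot be told apart.

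**Figure D1:**
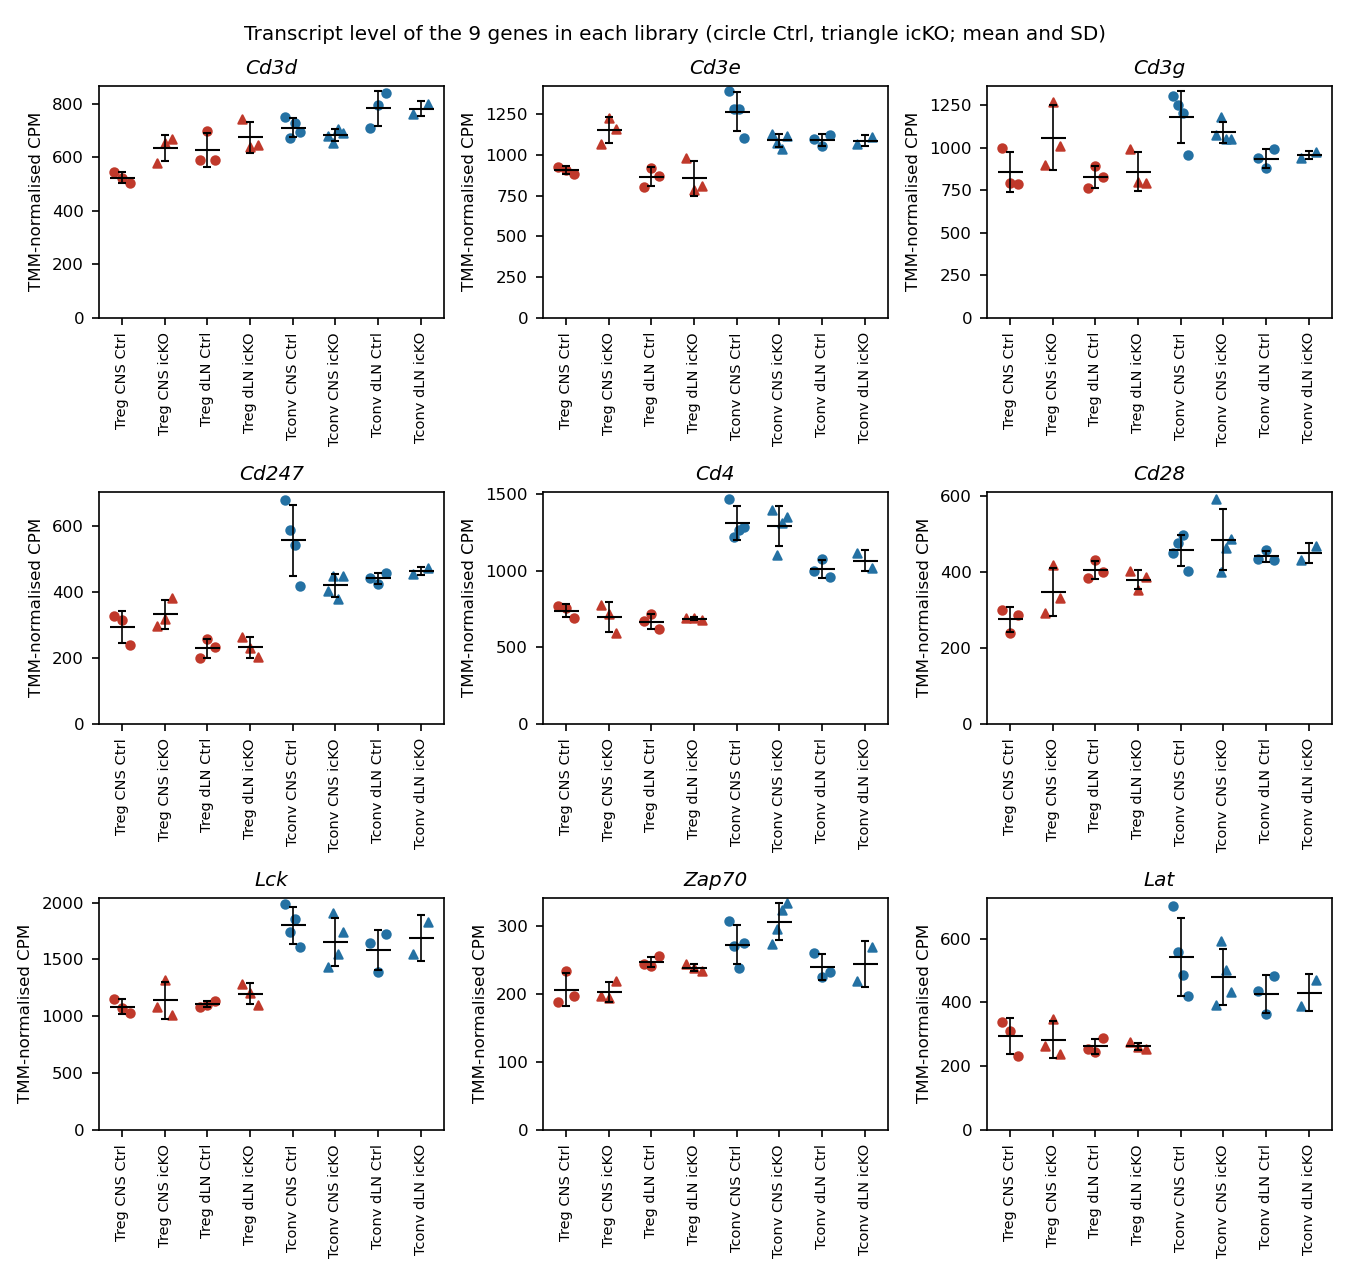
Level of each gene in each of 25 libraries (CPM after TMM scaling, linear axis from 0), by group; circles are Ctrl, triangles icKO, red Treg and blue Tconv cells, and bars give mean and SD. For Cd4, Lck and Lat every red point of a tissue and genotype lies below every blue one, while the Cd3g and Zap70 points intermix between cell types in the dLN.

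All 9 genes were lower in Treg than in Tconv cells of the control CNS, and Cd4, Lck and Lat were called lower in each of the 4 tissue and genotype pairs. Cd247, the zeta chain, showed the largest difference in 3 of the 4 pairs. A gene was called at a Benjamini-Hochberg adjusted p under 0.05 over 13500 genes in edgeR's quasi-likelihood test. In Ctrl CNS, 9 of 9 members were lower, where 7.03% of all genes tested were called lower. In icKO CNS 5 of 9 were lower (4.2% of all), in Ctrl dLN 6 of 9 (5.48%) and in icKO dLN 5 of 9 (4.47%), and no member was called higher in any pair. The members' median log2 fold changes were -0.73, -0.48, -0.34 and -0.35 in this order, beside medians over all genes of 0.02, 0.00, 0.00 and 0.00. With all 26 libraries the counts were 6 (1.71% of all genes lower), 4 (0.345%), 1 (0.873%) and 2 (2.06%), and the median of all genes in icKO dLN moved to 0.30. Cd247 was called in 3 of these 4 fits, all but icKO CNS.

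Of the receptor chains, Cd247 had 328, 314 and 238 CPM in the 3 Ctrl CNS Treg libraries and 679, 587, 542 and 418 in the 4 Ctrl CNS Tconv libraries. In Ctrl dLN it had 200, 257 and 231 CPM in Treg and 442, 424 and 456 in Tconv cells. In icKO dLN the values were 263, 230 and 201 against 454 and 471. The groups did not overlap in any of these pairs, and the dLN Tconv libraries of both genotypes lay between 424 and 471 CPM. The log2 fold changes, Treg against Tconv, were -0.92 ± 0.15 (SE, edgeR adjusted p = 0.00015) in Ctrl CNS, -0.94 ± 0.16 (0.00032) in Ctrl dLN and -1.0 ± 0.17 (0.00053) in icKO dLN. These 3 calls held in every alternative run and without any single library. In icKO CNS, Cd247 had 296, 317 and 381 CPM in Treg against 403, 448, 378 and 447 in Tconv cells, overlapping by 1 library on each side, with -0.34 ± 0.15 (0.14).

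Cd3d, Cd3e and Cd3g had smaller fold changes than Cd247 in each of the 4 pairs. Cd3e, part of both CD3 dimers of the receptor, had 928, 910 and 881 CPM in Ctrl CNS Treg against 1391, 1280, 1283 and 1104 in Tconv cells (-0.48 ± 0.09, adjusted p = 0.00087 in edgeR). In icKO CNS its values were 1069, 1228 and 1158 in Treg and 1129, 1072, 1039 and 1115 in Tconv cells, which overlapped (0.08 ± 0.09, 0.63). In the dLN, Treg cells had 803, 922 and 872 (Ctrl) and 978, 784 and 806 CPM (icKO), all below the Tconv values of 1054 to 1123 and 1065 to 1110. The dLN differences of Cd3e were -0.34 and -0.35 with adjusted p of 0.029 and 0.047. Cd3d, which pairs with Cd3e, was at 505 to 546 CPM in Ctrl CNS Treg and 672 to 753 in Tconv cells, and was called in Ctrl CNS (-0.44 ± 0.09) and Ctrl dLN (-0.32 ± 0.10). Cd3g, the partner of Cd3e in the other dimer, was called in Ctrl CNS with -0.46 ± 0.13, where 996, 795 and 786 CPM in Treg overlapped 1306, 1254, 1206 and 957 in Tconv cells. In the other pairs it differed by -0.18 to -0.04 on the log2 scale. The Cd3g call in Ctrl CNS was lost without Treg replicate 2 (adjusted p = 0.074) or replicate 3 (0.065).

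Cd4, the coreceptor gene and part of the sort in both cell types, had 769, 757 and 687 CPM in Ctrl CNS Treg and 1469, 1219, 1263 and 1285 in Tconv cells. In icKO CNS the values were 778, 718 and 589 against 1394, 1104, 1313 and 1353. In the dLN, Treg libraries lay at 615 to 713 CPM and Tconv libraries at 959 to 1115. No Treg library reached a Tconv library, and the mean was 1.77 and 1.86 times as high in Tconv as in Treg cells of the Ctrl and icKO CNS. The log2 fold changes were -0.83 ± 0.10, -0.89 ± 0.10, -0.60 ± 0.11 and -0.64 ± 0.12 in Ctrl CNS, icKO CNS, Ctrl dLN and icKO dLN, with edgeR adjusted p from 5.3e-06 to 0.0014. With all 26 libraries Cd4 was not called in the dLN, where it stood at -0.58 in Ctrl (adjusted p = 0.14) and -0.32 in icKO mice (0.37). Cd28, the costimulatory receptor gene, had 300, 238 and 285 CPM in Ctrl CNS Treg and 450, 476, 498 and 403 in Tconv cells. Its fold changes were -0.74 ± 0.13 in Ctrl CNS and -0.48 ± 0.13 in icKO CNS, both called, and -0.12 ± 0.14 and -0.24 ± 0.15 in the dLN, neither called. The icKO CNS call of Cd28 was lost without Treg icKO replicate 1 or 3 or Tconv icKO replicate 1, with adjusted p of 0.080, 0.055 and 0.064.

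Lck, the kinase that starts receptor phosphorylation, was the most evenly separated kinase. It had 1155, 1073 and 1026 CPM in Ctrl CNS Treg and 1992, 1747, 1859 and 1608 in Tconv cells, and 1081, 1321 and 1012 against 1431, 1912, 1549 and 1741 in icKO CNS. In the dLN it had 1085, 1100 and 1136 against 1649, 1389 and 1721 in Ctrl and 1287, 1207 and 1099 against 1548 and 1832 in icKO mice. All 12 Treg libraries lay between 1012 and 1321 CPM and all 13 Tconv libraries between 1389 and 1992. The log2 fold changes were -0.73 ± 0.12, -0.54 ± 0.12, -0.52 ± 0.12 and -0.50 ± 0.14 in Ctrl CNS, icKO CNS, Ctrl dLN and icKO dLN, with edgeR adjusted p of 0.00015, 0.0028, 0.0073 and 0.022. Zap70, the kinase that binds the phosphorylated chains, was called lower in both CNS pairs and in neither dLN pair. It had 188, 234 and 198 CPM in Ctrl Treg against 308, 272, 238 and 275 in Tconv cells (-0.40 ± 0.11) and 196, 194 and 220 against 274, 296, 324 and 334 in icKO mice (-0.59 ± 0.11). In the dLN, Zap70 lay at 234 to 256 CPM in Treg and 220 to 269 in Tconv cells, and differed by 0.04 ± 0.11 and -0.03 ± 0.13. The difference between the Ctrl tissues itself was -0.45 ± 0.16 for Zap70 (edgeR adjusted p = 0.12). The Ctrl CNS call of Zap70 was lost without Treg replicate 1 (adjusted p = 0.066).

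Lat, the scaffold gene, followed Lck. Its values were 340, 311 and 231 CPM in Ctrl CNS Treg and 704, 558, 486 and 421 in Tconv cells, and 262, 348 and 238 against 391, 594, 502 and 434 in icKO CNS. In Ctrl dLN the values were 254, 243 and 288 against 435, 363 and 482, and in icKO dLN 275, 259 and 253 against 390 and 471. Treg and Tconv libraries did not overlap, and the Tconv libraries of Ctrl CNS spread widest. The log2 fold changes were -0.88 ± 0.18, -0.76 ± 0.18, -0.71 ± 0.19 and -0.72 ± 0.21 in Ctrl CNS, icKO CNS, Ctrl dLN and icKO dLN, with edgeR adjusted p of 0.0014, 0.0059, 0.017 and 0.031. Without overlap and lower in Treg cells were 8 members in Ctrl CNS (8.53% of all genes), 4 in icKO CNS (8.69%), 6 in Ctrl dLN (19.0%) and 7 in icKO dLN (26.1%).

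The dLN calls rested on few libraries. In Ctrl dLN the count of 6 became 3 without Treg replicate 1 or Tconv replicate 3, and 4 or 5 without any other library. Cd3e was lost there without any library other than Treg replicate 2, Cd3d without Treg replicate 1 or 3 or Tconv replicate 2 or 3, and Lat without Treg replicate 1 or 2 or Tconv replicate 1 or 3. In icKO dLN, with 2 Tconv libraries, the count of 5 fell to 3 without Treg replicate 1, to 2 without Treg replicate 2, Treg replicate 3 or Tconv replicate 2, and to 1 without Tconv replicate 1. Lck and Lat were lost in each of these 5 fits, Cd3e without any library other than Treg replicate 1, and Cd4 without Tconv replicate 1 (adjusted p = 0.076). Fitted on the compared groups alone, the CNS counts were 5 in Ctrl and 3 in icKO mice. Without the 5 CNS Tconv libraries whose file names disagree, the icKO CNS count was 2, with a single Tconv library left and assumed to vary like the other groups.

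**Figure D2:**
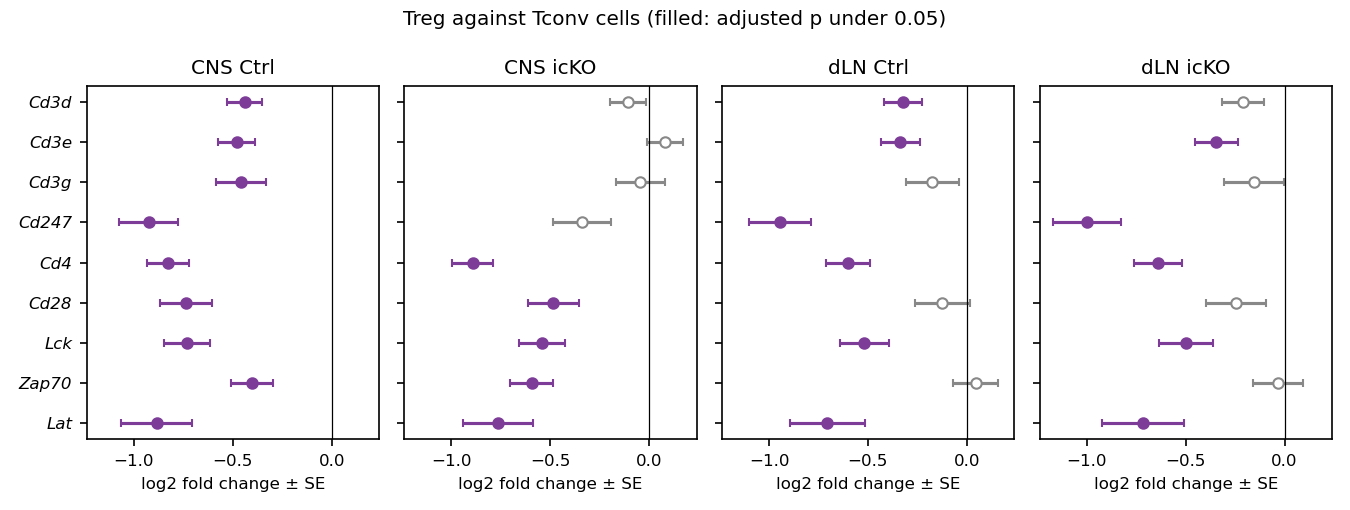
Log2 fold change of each gene in Treg against Tconv cells, with standard errors, in the 4 tissue and genotype pairs; filled purple points have an adjusted p under 0.05. Cd4, Lck and Lat are filled in all 4 panels, Cd247 lies at or beyond -0.92 in 3 of them, and Zap70 lies at 0.04 and -0.03 in the dLN panels.

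The proportions between the 9 genes differed as well as their sum. As a percentage of Cd3e TPM in the same library, Cd247 TPM was 20.8% to 29.4% in the 12 Treg libraries (median 23.0%) and 30.1% to 40.9% in the 13 Tconv libraries (median 34.0%). No Treg library reached a Tconv library of either tissue or genotype. By group the mean was 27.0% ± 3.79 (SD, n = 3) in Ctrl and 24.1% ± 3.04 (n = 3) in icKO CNS Treg cells, 22.1% ± 1.27 and 22.7% ± 1.80 in dLN Treg cells, and 32.3% to 36.6% in the Tconv groups. Cd4, Lat and Lck, set against Cd3e in the same way, overlapped when all libraries of a cell type were pooled. Cd4 was at 22.1% to 38.0% in Treg and 37.1% to 55.0% in Tconv libraries. Lat was at 23.7% to 42.1% and 39.6% to 63.9%, and Lck at 56.8% to 99.9% and 82.7% to 115.8%. Within each tissue and genotype, however, Cd4 and Lat did not overlap between the cell types either, and Lck overlapped in the dLN alone. Of the summed TPM of the 9 genes, Cd247 made up 4.73% ± 0.77 in Treg (SD, n = 12) and 6.17% ± 0.60 in Tconv libraries (n = 13), Cd4 6.36% and 8.16%, and Lat 6.63% and 8.57%. Cd3g made up 27.8% ± 1.70 and 24.5% ± 1.28, and Cd28 2.25% and 2.22%. Among these, Cd28 alone took nearly the same share in both cell types when tissues were pooled. It averaged 1.84% in Treg and 2.03% in Tconv cells of Ctrl CNS, and 1.99% and 2.36% in icKO CNS. In the dLN the order reversed, with 2.70% and 2.27% in Ctrl and 2.46% and 2.25% in icKO mice. The shares sum to a fixed total, so a lower one raises the others. These proportions are given as a description with no test.

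**Figure D3:**
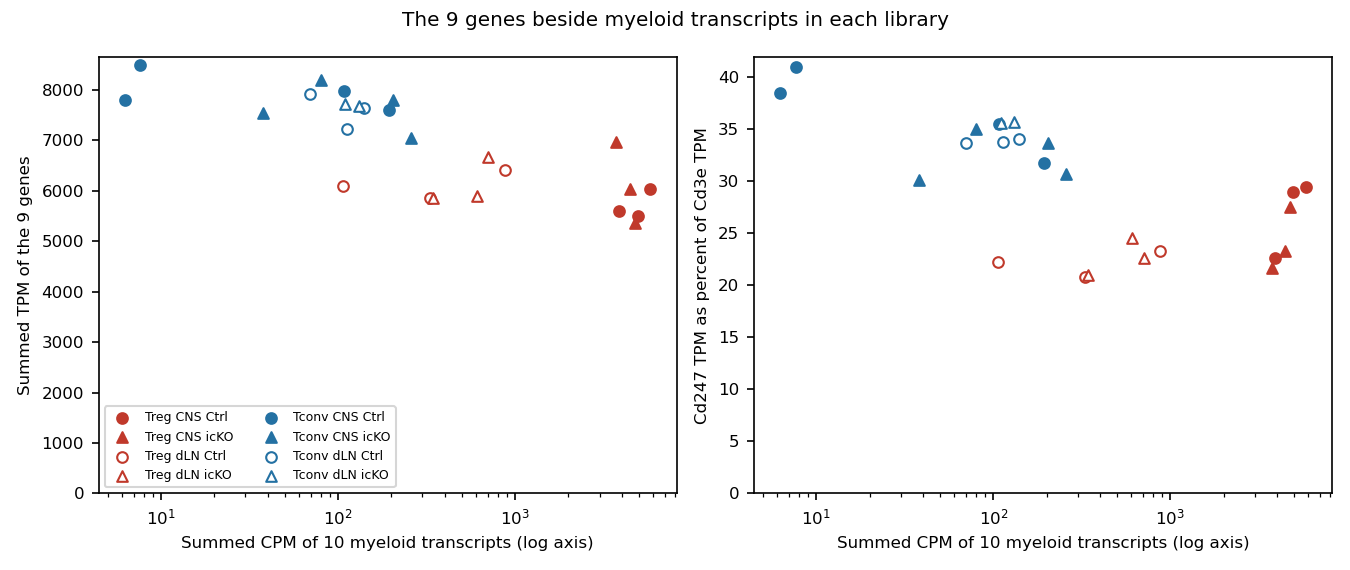
Summed TPM of the 9 genes (left) and Cd247 TPM as a percentage of Cd3e TPM (right) against the summed level of 10 myeloid transcripts (log axis), 1 point per library for 25 libraries; red is Treg and blue Tconv, filled CNS and open dLN, circles Ctrl and triangles icKO. CNS Treg libraries lie at 3731 to 5814 CPM of myeloid transcripts, dLN Treg libraries at 107 to 876, and in both the ratio is below 30%, under all Tconv libraries.

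The knockout comparison asks whether loss of TNFR2 from Treg cells goes with altered levels of these genes, in Treg cells themselves and in Tconv cells of mice of that genotype. No member was called in any of the 4 comparisons of icKO with Ctrl cells, with 25 or with 26 libraries, by edgeR. At an unadjusted p under 0.05 there were 4 in CNS Treg and 2 in CNS Tconv cells and 0 in either dLN population. Over all 13500 genes tested there were 915, 2437, 146 (dLN Treg) and 197 (dLN Tconv) at that level. DESeq2 called 1 member, in CNS Tconv cells. In CNS Treg, dLN Treg and dLN Tconv cells no gene at all was called (0.0%), and in CNS Tconv cells 419 of 13500 were (3.1%, and 0.0919% with 26 libraries). In CNS Treg cells Cd3e had 928, 910 and 881 CPM in Ctrl and 1069, 1228 and 1158 in icKO libraries, and Cd3d had 546, 523 and 505 against 579, 653 and 670. The genotypes did not overlap for these 2 members, where 3.99% of all genes were higher without overlap. Their log2 fold changes were 0.35 ± 0.10 and 0.27 ± 0.10, with edgeR adjusted p of 0.56 and 0.68. Cd28 and Cd3g stood at 0.34 ± 0.14 and 0.30 ± 0.13 with overlapping libraries, and Cd247, Cd4, Lck, Zap70 and Lat between -0.09 and 0.18. Transcripts of CD8 T and NK cells moved the same way in CNS Treg libraries, as given above, and their part was not tested. In dLN Treg cells the 9 fold changes lay between -0.09 and 0.11, and in dLN Tconv cells between -0.01 and 0.09.

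In CNS Tconv cells Cd247 had 679, 587, 542 and 418 CPM in Ctrl and 403, 448, 378 and 447 in icKO libraries. The icKO libraries lay low and close together, and Ctrl replicate 4 fell among them. The file names of Ctrl replicates 3 and 4 and of icKO replicates 2, 3 and 4 give the other genotype. The 6 Treg marker genes summed to 1241 to 1782 CPM in these Ctrl and 2075 to 2331 in these icKO libraries. In dLN Tconv cells they summed to 465 to 688. Foxp3, a member of that list, went the other way, at 0.38 to 1.53 CPM in Ctrl and 0.11 to 0.40 in icKO libraries. The part of the listed genes in the values of Cd247 was not tested. The fold change was -0.41 ± 0.13 with an edgeR adjusted p of 0.10. It was called without Ctrl replicate 4 (-0.52, adjusted p = 0.020) and by DESeq2 (-0.42, 0.041). Cd3e in the same cells was at -0.22 ± 0.09 (0.18), and the remaining members lay between -0.18 and 0.17. The difference between the CNS genotype effects, Treg minus Tconv, was 0.56 ± 0.13 for Cd3e (adjusted p = 0.065) and 0.59 ± 0.21 for Cd247 (0.19), so neither was shown to respond differently, where 0.178% of all genes were called. At an unadjusted p under 0.05 there were 4 members and 2026 of all 13500 genes. The Cd3e difference was called by DESeq2 (adjusted p = 0.0020), with a filter of 10 CPM in 3 libraries (0.039), without Treg icKO replicate 1 (0.031) and without Tconv Ctrl replicate 4 (0.018). The difference of the Tconv genotype effects between CNS and dLN called no member and no gene in edgeR (0.0%; 1 member and 1101 of 13500 genes at an unadjusted p under 0.05), with Cd247 at -0.48 ± 0.22 (0.57).

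**Figure D4:**
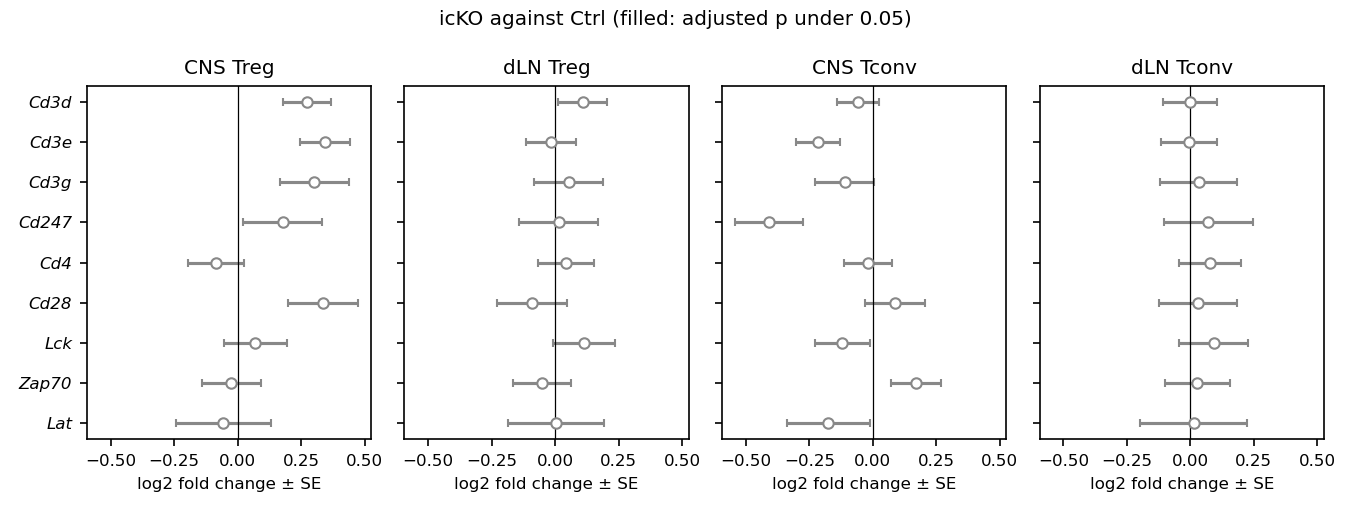
Log2 fold change of each gene in icKO against Ctrl cells, with standard errors, in the 4 cell populations; open grey points have an adjusted p of 0.05 or more. All points are open. In CNS Treg cells Cd3e lies at 0.35, and in CNS Tconv cells Cd247 lies at -0.41.

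Between tissues 0 to 2 members were called in each population. In Ctrl Treg cells Cd28 fell in the CNS, with 300, 238 and 285 CPM against 384, 430 and 399 in the dLN (-0.56 ± 0.14, edgeR adjusted p = 0.0061). It was 1 of 9 members called, where 21.8% of all genes were, and no member was called with 26 libraries (5.75%). Zap70 and Cd3d also lay lower in the CNS without overlap, at -0.26 ± 0.11 (0.11) and -0.26 ± 0.10 (0.061), which gave 3 members lower without overlap beside 20.2% of all genes. Cd247 stood at 0.35 ± 0.16 and was called without Treg CNS replicate 3 (0.49, adjusted p = 0.032). In icKO Treg cells Cd3e was higher in the CNS, with 1069, 1228 and 1158 CPM against 978, 784 and 806 (0.43 ± 0.10, 0.0035), and so was Cd247, with 296, 317 and 381 against 263, 230 and 201 (0.52 ± 0.16, 0.020). These were 2 of 9 members, where 22.5% of all genes were called. With 26 libraries Cd3e alone was called (5.15%). Cd247 was lost without CNS replicate 3 (adjusted p = 0.10), dLN replicate 2 (0.073) or dLN replicate 3 (0.13), and Cd3g was called without CNS replicate 1 (0.042). All of these Treg tissue comparisons set the CNS libraries with 3731 to 5814 CPM of myeloid transcripts against dLN libraries with 107 to 876, and the part of that difference was not tested.

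In Ctrl Tconv cells Cd4 was higher in the CNS, with 1469, 1219, 1263 and 1285 CPM against 995, 1074 and 959 in the dLN (0.38 ± 0.10, edgeR adjusted p = 0.026). This was 1 member of 9, where 8.9% of all genes were called, and 0 with 26 libraries (1.1%). The call of Cd4 was lost without CNS replicate 1 (adjusted p = 0.089) or dLN replicate 1 (0.099), 2 (0.058) or 3 (0.11). Without CNS replicate 4, 4 members were called higher: Cd4, Cd3e (0.27), Cd3g (0.42) and Cd247 (0.45). Without the 5 libraries whose file names disagree, 4 were called as well, namely Cd4, Cd3g, Cd247 and Lat. In icKO Tconv cells edgeR called no member, where 14.1% of all genes were called, and 2 members and 3619 of 13500 genes had an unadjusted p under 0.05. Cd4 had 1394, 1104, 1313 and 1353 CPM in the CNS against 1115 and 1016 in the dLN (0.28 ± 0.12, 0.13), and Zap70 274, 296, 324 and 334 against 220 and 269 (0.33 ± 0.12, 0.080). With 26 libraries Cd3d was called lower (-0.37, 0.034, beside 9.24% of all genes). DESeq2 called Zap70 (0.32), and limma with quality weights called Zap70 (0.35) and Cd4 (0.29). The tissue difference of Ctrl cells, Treg minus Tconv, was -0.61 ± 0.19 for Cd28 (adjusted p = 0.075) and called no member, where 3.67% of all genes were called and 2 members and 2455 of 13500 genes had an unadjusted p under 0.05. It was called for Cd28 by DESeq2 (-0.58, 0.038) and limma (-0.65, 0.026), without Tconv CNS Ctrl replicate 4 (-0.67, 0.037) and without the 5 libraries (-0.62, 0.046).

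Over the 25 libraries, the genes differed in how closely they followed the others. The correlation of a member's log2 CPM with the mean of the other 8 was highest for Lck (Pearson r = 0.93), Lat (0.90), Cd247 (0.87) and Cd4 (0.86), and lowest for Cd3d (0.65) and Zap70 (0.57). Among pairs, Lck and Lat were closest (r = 0.94), followed by Cd3e with Cd247 (0.89) and Cd3e with Cd3g (0.88), and Cd3e and Zap70 were farthest apart (0.28). The libraries share group, depth and scaling, so these values are descriptions over 25 points in 8 groups. Outside the 9, the genes whose profile was most like the members' mean were Cd40lg (r = 0.93), the CD40 ligand of helper T cells, Anapc11 (0.92), a subunit of the anaphase-promoting complex, and Grap2 (0.92), the adaptor that links Lat to SLP-76. Tmsb10, an actin-binding thymosin, Ehd3, a protein of endosomal transport, and the ribosomal protein gene Rpl13a followed with r = 0.91 each. Cd40lg ranged from 29.7 to 77.0 CPM in the Treg groups and from 132 to 272 in the Tconv groups. Grap2 ranged from 30.8 to 60.9 CPM in Treg and from 77.0 to 126.6 in Tconv groups. These levels did not overlap between the cell types for either gene. Those of Ehd3 did not either (Treg libraries up to 179 CPM, Tconv libraries from 230). Levels of Anapc11 (99.1 and 92.9 CPM), Tmsb10 (962 and 872) and Rpl13a (770 and 718) overlapped by the same measure. The genes were picked by likeness to the members' mean over these same libraries, so separation by cell type is partly built in.

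Other genes of receptor signalling were divided between lower and higher in Treg cells. Of 56 tested, 16 were lower and 4 higher in Ctrl CNS, and 14 and 3 in icKO CNS. In Ctrl dLN 11 were lower and 3 higher, and in icKO dLN 11 and 3. Of all 13500 genes, 7.03%, 4.2%, 5.48% and 4.47% were called lower in the same order. No share of all genes called higher is given here, so the counts of higher genes are not a result about this list. With 26 libraries 6, 2, 5 and 5 of the 56 were called, where 1.71%, 0.345%, 0.873% and 2.06% of all genes were called lower. The medians over the 56 were -0.16, -0.13, -0.11 and -0.19. Themis, an adaptor that tunes receptor signals in thymocytes, was at 66.0 to 78.7 CPM in Ctrl CNS Treg and 175 to 280 in Tconv cells (-1.58 ± 0.16), and at -1.89 in icKO CNS, -1.41 in Ctrl dLN and -1.38 in icKO dLN. Txk, a Tec family kinase gene, was at -1.66 and -1.47 in Ctrl and icKO dLN, and Grap2 at -1.25, -1.25 and -1.40 in Ctrl CNS, Ctrl dLN and icKO dLN. Trat1, a receptor-associated membrane adaptor, was at -0.91 and Stim1, the calcium sensor of the endoplasmic reticulum, at -0.88 in Ctrl CNS. In icKO CNS, Ubash3a and Lax1, inhibitors of receptor signalling, were at -0.67 and -0.77. Of the 7 kinases on the list 4, 1, 3 and 3 were lower in Ctrl CNS, icKO CNS, Ctrl dLN and icKO dLN, and of the 16 adaptors 6, 4, 4 and 5. Icos, a CD28 family receptor, was at 1235 to 1518 CPM in Ctrl dLN Treg against 415 to 477 in Tconv cells (1.57 ± 0.30), at 1.69 in icKO dLN and at 0.97 in Ctrl CNS. Cd5, a brake on receptor signalling, was at 0.47 and 0.54 in Ctrl and icKO dLN, and Sla, an adaptor that lowers receptor levels, at 0.59, 0.43 and 0.61 in Ctrl CNS, Ctrl dLN and icKO dLN. Ubash3b (1.0 and 0.96) and Dok1 (0.58 and 0.53), both negative regulators, were higher in Ctrl and icKO CNS Treg cells, and Sh2d1a, an adaptor of SLAM receptors, was at 0.70 in icKO CNS. Each of these values had an edgeR adjusted p under 0.05.

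**Figure D5:**
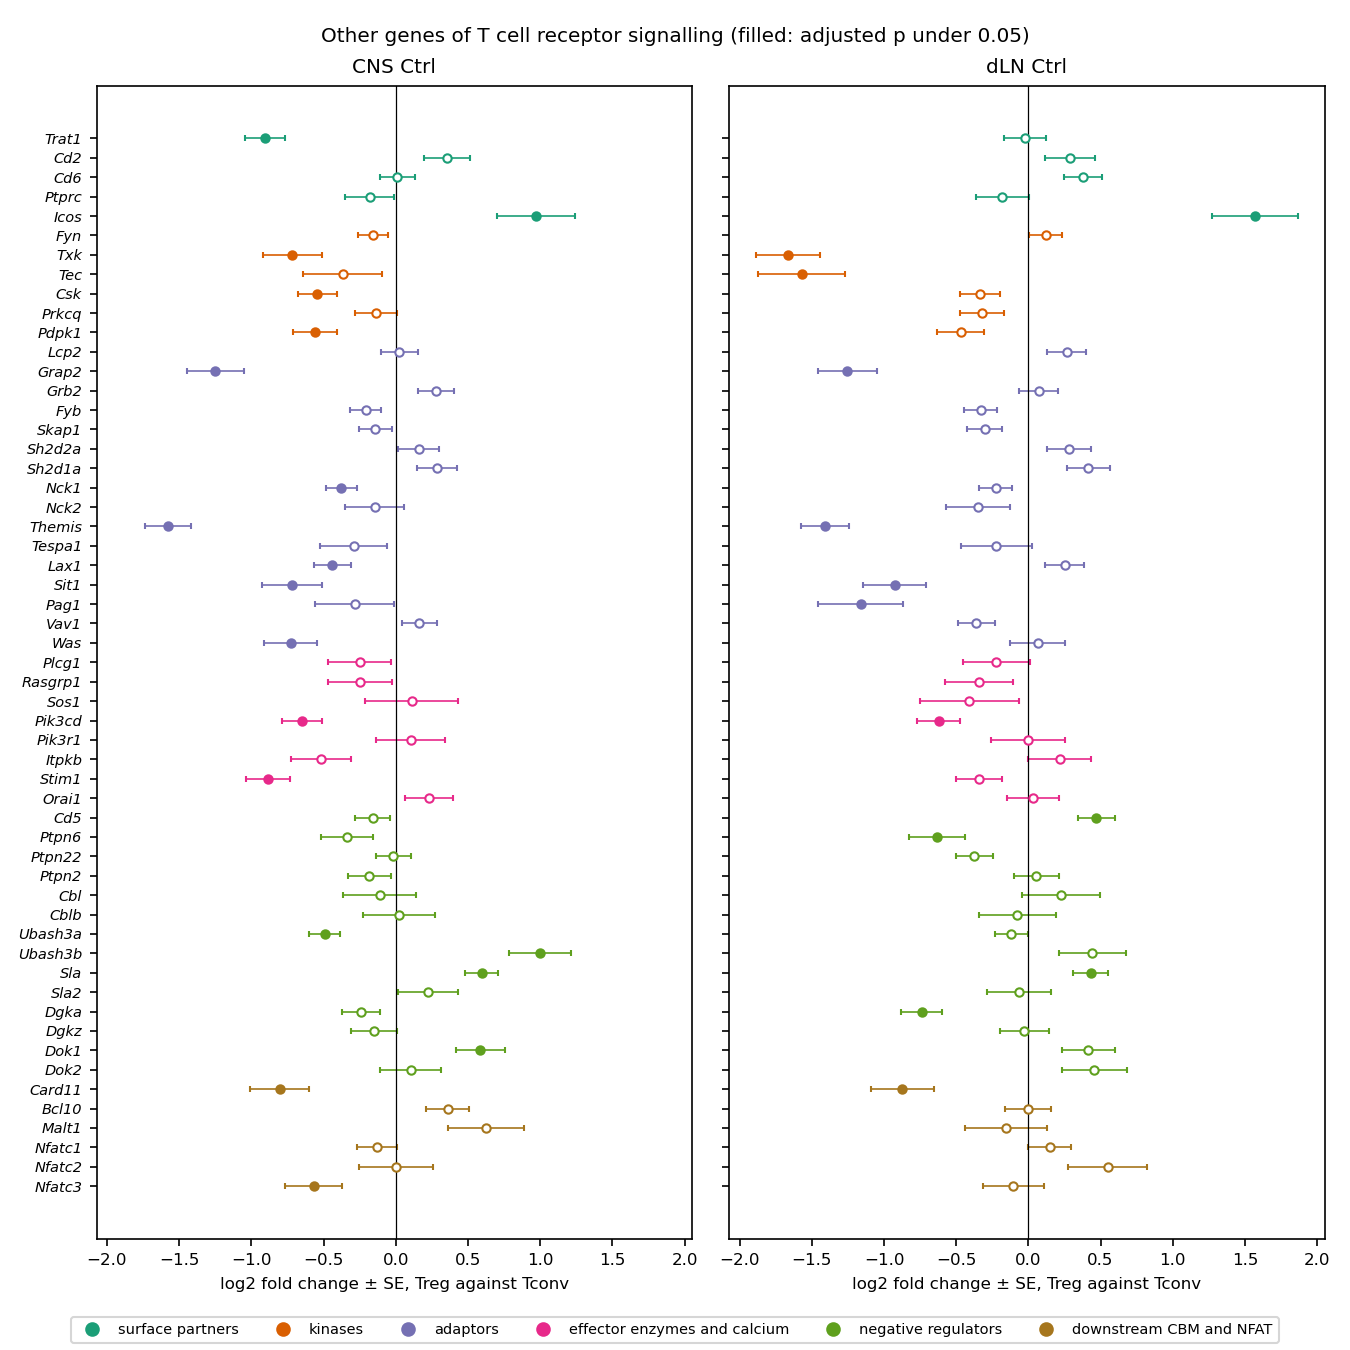
Log2 fold change, Treg against Tconv, with standard errors, of other genes of receptor signalling in Ctrl CNS (left) and Ctrl dLN (right), coloured by role; filled points have an adjusted p under 0.05. Filled points at the left include Themis, Grap2 and Txk in both panels, and Icos and Sla are filled at the right in both.

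Between genotypes, edgeR called none of the 56 genes in CNS Treg, dLN Treg or dLN Tconv cells, where 4, 1 and 0 had an unadjusted p under 0.05. Over all 13500 genes, none was called there, and 915, 146 and 197 were at that unadjusted level. In CNS Tconv cells 5 of the 56 were higher and 3 lower in icKO mice, where 3.1% of all genes were called. With 26 libraries none of the 56 was called (0.0919% of all genes). Higher were Lax1 (0.71 ± 0.12), Sla (0.58 ± 0.11), with 415 to 531 CPM in Ctrl and 629 to 764 in icKO libraries, Sh2d2a (0.60 ± 0.13), a T cell adaptor that binds Lck, and Themis (0.54 ± 0.14), among others. Lower were the phosphatase gene Ptpn6 (-0.89 ± 0.17), the kinase gene Tec (-1.12 ± 0.25) and Csk (-0.45 ± 0.12), whose kinase inhibits Lck. Lck itself stood at -0.12 ± 0.11 there. Between tissues, 8 of the 56 were higher and 10 lower in the CNS in Ctrl Treg, and 10 and 4 in icKO Treg cells. In Tconv cells 3 and 1 were called in Ctrl and 10 and 8 in icKO mice. Of all 13500 genes, 21.8%, 22.5%, 8.9% and 14.1% were called in these 4 comparisons. With 26 libraries 5, 2, 0 and 10 of the 56 were called, beside 5.75%, 5.15%, 1.1% and 9.24% of all genes. Sla was higher in the CNS in all 4, at 0.71, 0.57, 0.55 and 1.22 in that order. In Treg cells of Ctrl and icKO mice Tec (1.43 and 1.28) and Dok1 (0.77 and 0.67) were higher, and Icos (-1.19 and -1.12) and Trat1 (-0.75 and -0.51) lower. Ptpn22 (0.67), Lax1 (-0.65) and Itpkb (-0.83) were further called genes in Ctrl Treg, and Grb2 (0.51), Fyn (-0.40) and Nfatc1 (-0.49) in icKO Treg cells. In Ctrl Tconv cells Dok2 (0.88) and Dok1 (0.60) were higher and Sos1 (-1.11) lower. In icKO Tconv cells Sh2d2a (1.08), Lax1 (0.83) and Ptpn22 (0.74) were higher, and Csk (-0.74), Dgka (-0.71), Sh2d1a (-0.71) and Txk (-0.90) lower. The Ctrl tissue difference, Treg minus Tconv, was called for Trat1 (-0.88), Lax1 (-0.69) and Cd5 (-0.63).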

How the data were processed

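RNA was extracted from sorted cells with NucleoSpin RNA XS and made into libraries with SMART-Seq v4 and Nextera, per the labels' protocols. Per the submitters' processing notes, the authors used FastQC, Trimmomatic, STAR 2.5.3a and RSEM 1.2.28 with mm10. The deposited expected counts are RSEM's estimated reads per gene; the authors' TPM and FPKM columns scale them for length and depth, and the deposited length column gives bases. Here the expected counts were rounded and fitted with edgeR 4.0.16 (R 4.3.3; filterByExpr, TMM, 1 quasi-likelihood model of 8 group means, 25 libraries), with Benjamini-Hochberg adjustment over 13500 genes (13054 with 26 libraries). CPM are TMM-scaled except in marker sums and the library left out. SE was taken as log2 fold change over the root of F. The p-values pool the spread over groups. Scripts were tested on simulated data.

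The members, gene lists, comparisons and the choice of 25 libraries were made with earlier results of these data known. Named were the 9 members, Tnfrsf1b and Foxp3 as label checks, up to 4 called pathway genes with the smallest p per direction and comparison, and the 6 genes most correlated with the members' mean. The pathway genes that this rule names are reported, except for 1. Alternatives were all 26 libraries, DESeq2 1.42.0 size factors and Wald test, weighted limma voom (3.58.1), other filters, separate models, a replicate block, and leaving out libraries. Sequences and windows came from RefSeq tables, gene positions from GENCODE vM21. Python 3.11.15, pandas 2.3.3, numpy 2.4.6 and matplotlib 3.10.9 were used.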

Additional observations from a re-analysis of the deposited data

How the results depend on the processing

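Of 135 pairs of a member and a comparison, 29 were called, and none of these 29 changed direction under any alternative run. Of 94 pairs called in no fit, 100 of 1557 alternative values changed sign. With all 26 libraries the number of called members was 0 for Ctrl Treg CNS against dLN, 1 for icKO Treg, 0 for Ctrl Tconv, 1 for icKO Tconv, 1 for Treg against Tconv in Ctrl dLN and 2 in icKO dLN. The model of the compared groups alone gave 1 for icKO Treg and 0 for Ctrl Tconv between tissues, and 5 and 3 for Treg against Tconv in Ctrl and icKO CNS. DESeq2's Wald test called 1 member in CNS Tconv cells between genotypes, 1 in icKO Tconv cells between tissues, 1 in the CNS genotype difference and 1 in the Ctrl tissue difference; limma called 2 in icKO Tconv cells and 1 in the Ctrl tissue difference, and the filter of 10 CPM in 3 libraries 1 in the CNS genotype difference. Without the 5 CNS Tconv libraries whose file names disagree, the counts were 4 for Ctrl Tconv between tissues, 2 for Treg against Tconv in icKO CNS and 1 for the Ctrl tissue difference. The cause of these shifts was not tested. The common dispersion was 0.142 in the fit of 25 libraries (13500 genes) and 0.364 in the fit of 26 (13054 genes).

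Leaving out 1 library at a time gave 0 to 0 called members for CNS Treg, dLN Treg and dLN Tconv between genotypes, 0 to 1 for CNS Tconv, 1 to 2 for Ctrl Treg, 1 to 3 for icKO Treg, 0 to 4 for Ctrl Tconv and 0 to 0 for icKO Tconv between tissues. For Treg against Tconv it gave 8 to 9 in Ctrl CNS, 4 to 5 in icKO CNS, 3 to 5 in Ctrl dLN and 1 to 3 in icKO dLN, and 0 to 1 for the CNS genotype and the Ctrl tissue difference. With replicate number as a block, 3 members were higher in Ctrl Tconv cells of the CNS, in place of 1, and no other count moved by over 1.5 times. Samples with the same number had correlations of -0.15 to 0.11, and no comparison had every pair over 0.1. In 0 of 9 comparisons with 3 or more pairs did every sample correlate best with its own number. With 2 pairs, every sample did so for Treg against Tconv in icKO dLN. The numbers were not read as pairs, but this check cannot show that the libraries came from different mice. Shares of the 9 genes from FPKM equal those from TPM apart from rounding, since the 2 units are proportional within a library. That comparison is therefore no check of the shares. All 9 genes were abundant, and groups held 2 to 4 libraries.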
